A study of Saccharomyces cerevisiae with 24 samples.

Results

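The comparison described here set wild-type mother cells of budding yeast (Saccharomyces cerevisiae) aged for 48 h against mothers of the same strain aged for 24 h. Its libraries were taken by their labels: 2 libraries at 48 h and 2 libraries at 24 h of the wild type that accompanied the mus81 mutant, out of 24 libraries in the series. The wild type was a diploid of the mother enrichment programme grown in YPD, a rich glucose medium, and the same 3 ages (log phase, 24 h and 48 h) were measured in wild type and in a diploid mus81 mutant, with 2 libraries per group. A further control strain and a strain carrying a translocation between chromosomes XII and V had 1 library at each age. Those 2 strains were labelled a/a diploids with Tom70-GFP and no I-SceI, and the control strain also carried ADE2 and pGST-V-U. Both aged groups shared the biotin label on the starting cells, the estradiol added to the culture and the purification of the labelled mothers. The labels do not say whether replicates came from separate cultures. Every p-value below therefore reflects library-to-library spread, which may be technical. That spread was estimated jointly over 12 libraries in 6 groups, log phase and mus81 included. It is not the spread of the 4 compared libraries alone.

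A budding yeast mother divides a limited number of times, and each division leaves a scar and a daughter that starts young. The mother enrichment programme makes old mothers accessible in a liquid culture: estradiol switches on a Cre recombinase driven by SCW11, a promoter active in newborn daughters, and the recombinase inactivates UBC9 and CDC20, so that daughters stop dividing while mothers go on. Ageing mothers are known for accumulating extrachromosomal circles of ribosomal DNA (rDNA), for larger cells, and for a slower cycle near the end of life. Genes of ribosome production and genes of the environmental stress response are textbook opposites in yeast: growth signals hold the first up and the second down. The comparison asks what changed between the middle and the later age, after the first day of ageing.

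The 48 h libraries held 3020733 and 3985825 reads, and the 24 h libraries 5523986 and 1656535, the lowest depth of the mus81 table. The 24 h replicates were the less alike pair. The standard deviation of the difference between replicates was 0.227 at 48 h and 0.359 at 24 h on the log2 scale. It was taken over features at or above the 25th percentile of mean level, so the lowest features are left out. The deleted gene gave the label check: MUS81 had log2 values of 0.76 and 3.18 in mus81 mothers at 48 h, against 7.57 and 7.40 in wild-type mothers at 48 h. Markers of daughter cells, which a purification can carry over, summed to 0.191% and 0.242% of reads at 48 h and to 0.197% and 0.228% at 24 h, and none of the 11 was at 0 reads. Those ranges overlap, so the summed daughter markers did not separate the ages. Cells differing in number and cells differing in RNA per cell cannot be told apart in bulk RNA. All values below are the authors' log2 values, scaled per library, so that each is relative to the other transcripts of its library.

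Between 24 h and 48 h, 604 of 6669 features were higher (9.06%) and 848 were lower (12.7%) at an adjusted p under 0.05 from limma, with a median difference of 0.02 over all features. From log phase to 24 h the same fit called 1626 features higher (24.4%) and 1615 lower (24.2%). Counts of list members below, early and late, are to be read against these shares of all features. The called rises had a median of 0.78 and the called falls a median of -0.61 on the log2 scale. The libraries of the 2 ages did not overlap for 3846 features (57.7%), in either direction. The count of calls rested on single libraries. It was 81 higher and 202 lower without 48 h replicate 1, 353 and 725 without 48 h replicate 2, 925 and 1041 without 24 h replicate 1, and 238 and 432 without 24 h replicate 2, and all 604 rises and 848 falls kept their sign in these 4 fits. The kept signs say little, since these features were called on the same libraries. After quantile normalization all 604 rises and 840 of the 848 falls kept their sign. The replicates were spread along the direction of the change itself: 24 h replicate 2 lay below replicate 1 in 505 of the 604 rises and above it in 691 of the 848 falls, against below in 48.1% of all features. At 48 h, replicate 1 lay above replicate 2 in 464 of the rises and below it in 731 of the falls. The part of this order in the size of the changes was not tested.

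**Figure D1:**
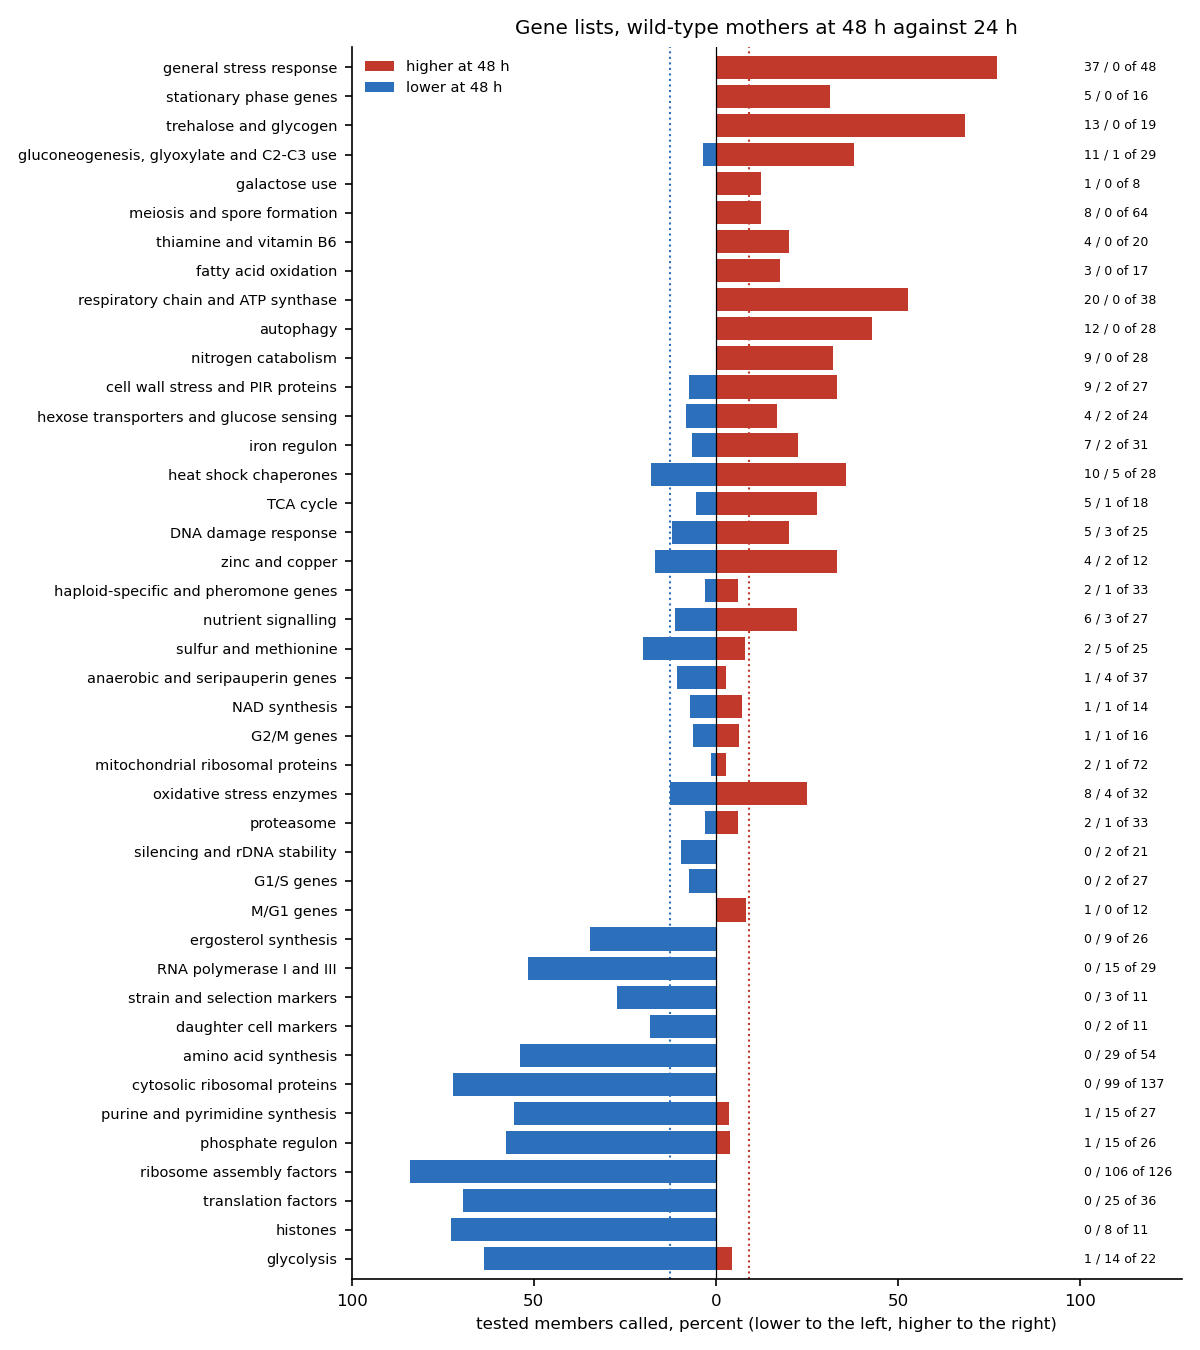
Share of the tested members of 42 gene lists called higher (red, to the right) or lower (blue, to the left) in wild-type mothers at 48 h against 24 h, ordered by the median difference. Dotted lines mark the shares over all features, 9.06% higher and 12.7% lower, and the numbers at the right give members higher and lower of those tested. The general stress response stands at the top with 37 of 48 higher, and the lists of ribosome production and glycolysis stand at the bottom.

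The upstream sequences of 5 genes are shown because they carry the motifs of the regulators known for 4 of the groups described below: the stress element AGGGG bound by Msn2 and Msn4, the Pho4 sites CACGTG and CACGTT, the Gcn4 site TGACTC and the PAC element GATGAG of ribosome assembly genes. Each line is the coding strand from the R64 reference of RefSeq, 250 bases long, and ends at least 100 bases before the start codon. Capitals mark the motif on either strand.
HSP26, chrII:381551-381800, + strand, stress element: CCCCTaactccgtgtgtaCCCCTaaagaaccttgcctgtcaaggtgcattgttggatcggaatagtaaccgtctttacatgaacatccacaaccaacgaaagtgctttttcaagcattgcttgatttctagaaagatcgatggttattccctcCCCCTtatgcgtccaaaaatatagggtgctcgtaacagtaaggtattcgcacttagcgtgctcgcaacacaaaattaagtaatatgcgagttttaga
CTT1, chrVII:654256-654505, + strand, stress element: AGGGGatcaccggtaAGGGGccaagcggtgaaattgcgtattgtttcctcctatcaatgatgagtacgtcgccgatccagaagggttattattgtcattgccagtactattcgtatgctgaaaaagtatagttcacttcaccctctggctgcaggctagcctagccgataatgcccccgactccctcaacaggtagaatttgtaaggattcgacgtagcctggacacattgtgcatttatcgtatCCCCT
PHO84, chrXIII:25987-26236, - strand, Pho4 site: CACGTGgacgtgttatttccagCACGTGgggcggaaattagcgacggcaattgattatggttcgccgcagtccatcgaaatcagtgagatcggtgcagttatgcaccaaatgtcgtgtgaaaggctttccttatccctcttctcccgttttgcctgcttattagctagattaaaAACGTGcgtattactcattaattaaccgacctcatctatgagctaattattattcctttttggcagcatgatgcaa
HIS4, chrIII:68434-68683, - strand, Gcn4 site: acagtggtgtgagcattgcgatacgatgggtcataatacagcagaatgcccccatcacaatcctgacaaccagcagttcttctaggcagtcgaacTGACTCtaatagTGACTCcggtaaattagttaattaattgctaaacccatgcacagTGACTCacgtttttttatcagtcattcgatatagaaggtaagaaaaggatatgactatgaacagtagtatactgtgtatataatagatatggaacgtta
NSR1, chrVII:807757-808006, - strand, PAC element: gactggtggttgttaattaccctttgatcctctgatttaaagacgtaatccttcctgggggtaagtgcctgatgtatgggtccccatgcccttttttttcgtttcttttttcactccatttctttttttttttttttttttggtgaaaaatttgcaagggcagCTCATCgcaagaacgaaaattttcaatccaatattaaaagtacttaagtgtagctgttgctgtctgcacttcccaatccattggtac

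Over the 600 bases before the start codon, 44 of 48 genes of the general stress response held AGGGG (91.7%), against 39.7% of 5982 promoters. A Pho4 site was present in 21 of 26 phosphate genes (80.8%), against 24.4% of all promoters. The Gcn4 site was present in 36 of 53 genes of amino acid synthesis (67.9%), against 15.3%, and GATGAG in 114 of 126 ribosome assembly factors (90.5%), against 32.1%. These are matches of letters, not measured binding. The lists are groups with known regulators, so a higher share of each regulator's motif follows from the choice of list. It carries no information on the change from 24 h to 48 h.

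Genes of the general stress response rose. Of 48 tested genes of the general stress response, 37 were higher at 48 h and none was lower, with a median of 1.24, against 9.06% higher and a median of 0.02 over all features. All 48 differences were above 0, and together these genes took 0.978% and 0.805% of reads at 48 h, against 0.426% and 0.292% at 24 h. The late rise continued an earlier one: from log phase to 24 h, 46 were higher and none lower, with a median of 2.09. HSP26, a small heat shock protein that keeps unfolded proteins from clumping, had log2 values of 11.21 and 10.89 at 48 h, against 9.33 and 8.54 at 24 h. The rise of HSP26 was 2.12 ± 0.27 (SE, adjusted p = 0.000691), or 4.34-fold. CTT1, the cytosolic catalase, had 8.15 and 7.94 at 48 h, against 6.50 and 5.59 at 24 h. Its rise was 2.00 ± 0.26 (SE, adjusted p = 0.000691). DDR2, a small stress protein, had 7.73 and 7.46 at 48 h, against 4.80 and 4.39 at 24 h, a rise of 3.00 ± 0.38 (SE, adjusted p = 0.000691). SIP18, a protein known from desiccation tolerance, rose by 2.34 ± 0.41 (SE, adjusted p = 0.0019). The count of rises in the list was 20 without 48 h replicate 1. These 4 genes kept their call whichever of the 4 libraries was left out.

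Among the regulators of stress genes, MSN4 passed the test and 3 others did not. MSN4, one of the paired activators of the stress element, had 8.31 and 8.17 at 48 h, against 7.87 and 7.59 at 24 h, and rose by 0.51 ± 0.16 (SE, adjusted p = 0.0387). Its partner MSN2 differed by -0.33 (adjusted p = 0.197) and did not pass. HSF1, the heat shock factor, differed by 0.23 (adjusted p = 0.217), and XBP1, a repressor of stressed and starving cells, by 1.41 (adjusted p = 0.143). The MSN4 call was lost with other libraries: its adjusted p was 0.222 without 24 h replicate 2, 0.236 without 48 h replicate 1 and 0.0795 without 48 h replicate 2.

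Genes of reserve carbohydrates rose as well. Of 19 tested genes of trehalose and glycogen, 13 were higher and none lower, with a median of 0.72. From log phase to 24 h, 18 were higher and none lower, with a median of 1.25. TSL1, a subunit of the trehalose synthase complex, had 10.18 and 9.96 at 48 h, against 9.01 and 8.22 at 24 h, and rose by 1.46 ± 0.22 (SE, adjusted p = 0.00119). GPH1*, glycogen phosphorylase, had 9.89 and 9.60 at 48 h, against 8.63 and 8.22 at 24 h, and rose by 1.32 ± 0.19 (SE, adjusted p = 0.00102). The asterisk marks genes whose reads can be shared with a near-identical gene or one overlapping on the same strand. Their counts are therefore uncertain. GSY2, the main glycogen synthase, had 10.11 and 10.25 at 48 h, against 9.45 and 8.38 at 24 h, with 24 h replicate 1 well above replicate 2 and both below the 48 h pair. Genes of stationary phase had 5 of 16 higher and none lower, with a median of 0.95. Among them MOH1 had 8.35 and 8.03 at 48 h, against 6.56 and 5.05 at 24 h, a rise of 2.39 ± 0.42 (SE, adjusted p = 0.0019), and TMA10 had 10.51 and 10.06 at 48 h, against 8.99 and 8.66 at 24 h, a rise of 1.46 ± 0.20 (SE, adjusted p = 0.000906). The trehalose and glycogen count was 6 without 24 h replicate 2 and 5 without 48 h replicate 1.

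Of 28 heat shock chaperones, 10 were higher (35.7%) and 5 lower (17.9%), against 9.06% and 12.7% of all features. Their median was 0.26. The chaperones named below all rose, while the lowest difference in the list was -1.03. SSA3, an Hsp70 that is scarce in growing cells, had 10.08 and 9.98 at 48 h, against 8.87 and 8.51 at 24 h, and rose by 1.34 ± 0.13 (SE, adjusted p = 0.000197). SSE2, a nucleotide exchange factor of Hsp70, had 9.89 and 9.76 at 48 h, against 8.71 and 8.14 at 24 h, and rose by 1.40 ± 0.17 (SE, adjusted p = 0.000691), and HSP31, a methylglyoxalase, rose by 1.21 ± 0.17 (SE, adjusted p = 0.000974). All 3 kept their call whichever library was left out. The count of falls was 1 after quantile normalization. Oxidative stress enzymes had 8 of 32 higher (25%) and 4 lower (12.5%) with a median of 0.00. The share of falls was near the 12.7% of all features. Their largest changes pointed in opposite directions. Beside CTT1, GPX1, a glutathione peroxidase, had 6.43 and 6.30 at 48 h, against 5.26 and 4.59 at 24 h, and OYE3, an NADPH dehydrogenase, had 7.05 and 6.55 at 48 h, against 5.09 and 5.59 at 24 h. YHB1, the flavohaemoglobin that removes nitric oxide, had 9.41 and 9.37 at 48 h, against 10.20 and 11.63 at 24 h, and fell by 1.52 ± 0.30 (SE, adjusted p = 0.00322). Its 24 h libraries lay far apart, with replicate 2 the higher, and both stood above the 48 h pair. Among oxidative stress enzymes the count of rises was 5 without 24 h replicate 2, 1 without 48 h replicate 1 and 5 without the variance trend, and that of falls was 2 without 24 h replicate 2, 1 without 48 h replicate 1, 7 after median centring and 2 after quantile normalization. The adjusted p of GPX1 was 0.0864 without 24 h replicate 2 and 0.0909 without 48 h replicate 1, and that of OYE3 0.129 without 48 h replicate 1.

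Genes of autophagy rose in part. Of 28 autophagy genes, 12 were higher (42.9%) and none lower, with a median of 0.46, against 9.06% higher over all features. ATG8, the ubiquitin-like protein of the autophagosome membrane, had 9.01 and 8.82 at 48 h, against 7.76 and 6.94 at 24 h, and rose by 1.56 ± 0.29 (SE, adjusted p = 0.00251). ATG17, a scaffold of the starting complex, had 8.11 and 7.75 at 48 h, against 6.90 and 6.54 at 24 h, and rose by 1.21 ± 0.21 (SE, adjusted p = 0.0019). The count was 4 without 24 h replicate 2, 1 without 48 h replicate 1, 6 without 48 h replicate 2, 7 with limma voom and 6 after quantile normalization, and the adjusted p of ATG8 was 0.0508 without 48 h replicate 1. Of 33 proteasome genes, 2 were higher and 1 lower, and the rises were 0 without 24 h replicate 2, 0 without 48 h replicate 1, 0 without the variance trend, 1 after median centring and 4 after quantile normalization. RPN4, the activator of proteasome genes, had 9.17 and 9.01 at 48 h, against 8.66 and 8.71 at 24 h, and a difference of 0.41 ± 0.12 (SE, adjusted p = 0.0275); its adjusted p was 0.0526 without 24 h replicate 1, 0.0645 without 24 h replicate 2 and 0.221 without 48 h replicate 1.

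Genes of glycolysis fell. Of 22 tested genes of glycolysis, 14 were lower and 1 higher, with a median of -0.77. From log phase to 24 h, 11 were lower and 5 higher, with a median of -0.49, against 24.2% lower and 24.4% higher over all features. As a group they took 5.38% and 5.74% of reads at 48 h, against 8.16% and 8.79% at 24 h. ENO2*, the main glycolytic enolase, had 14.11 and 14.41 at 48 h, against 15.48 and 15.84 at 24 h. It fell by 1.40 ± 0.22 (SE, adjusted p = 0.00131), or to 0.378 of its 24 h level. ADH1, the alcohol dehydrogenase that ends fermentation, had 13.54 and 13.88 at 48 h, against 14.76 and 14.98 at 24 h, and fell by 1.16 ± 0.20 (SE, adjusted p = 0.00183). FBA1, aldolase, had 14.28 and 14.51 at 48 h, against 15.31 and 15.62 at 24 h, and fell by 1.07 ± 0.20 (SE, adjusted p = 0.00265). TDH2*, a glyceraldehyde phosphate dehydrogenase, fell by 1.03 ± 0.16 (SE, adjusted p = 0.00131). All 4 kept their call whichever library was left out, but their size depended on the scaling. After quantile normalization the difference of FBA1 was -0.18 and lost its call (adjusted p = 0.456), that of TDH2* was -0.42 (adjusted p = 0.0453), that of ENO2* -0.75 and that of ADH1 -0.70. The count of falls in the list was 7 without 48 h replicate 1 and 5 after quantile normalization, and the list's median was -0.21 after the same normalization.

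Genes of gluconeogenesis, the glyoxylate cycle and the use of acetate, lactate or glycerol had 11 of 29 members higher and 1 lower, with a median of 0.67. From log phase to 24 h, 21 were higher and 1 lower, with a median of 1.29. CYB2, the lactate dehydrogenase of the mitochondrial intermembrane space, had 7.28 and 6.56 at 48 h, against 4.93 and 4.17 at 24 h, and rose by 2.37 ± 0.38 (SE, adjusted p = 0.00133), or 5.17-fold. IDP2, the cytosolic isocitrate dehydrogenase, had 9.05 and 8.98 at 48 h, against 8.04 and 7.14 at 24 h, and rose by 1.43 ± 0.24 (SE, adjusted p = 0.00157). MLS1, malate synthase, had 6.05 and 5.80 at 48 h, against 2.80 and 4.76 at 24 h, with the 24 h replicates far apart, and STL1, a glycerol importer, had 5.96 and 4.77 at 48 h, against 2.80 and 3.17 at 24 h. The adjusted p of MLS1 was 0.179 without 24 h replicate 1, 0.17 without 48 h replicate 1 and 0.0795 without 48 h replicate 2, and that of STL1 0.173 without 48 h replicate 1. The count of rises was 4 without 48 h replicate 1 and 7 without the variance trend. Of their regulators, ADR1, an activator of ethanol and fatty acid genes, had 9.42 and 9.72 at 48 h, against 9.02 and 8.95 at 24 h, and rose by 0.59 ± 0.13 (SE, adjusted p = 0.00552). Its adjusted p was 0.0631 without 48 h replicate 2. CAT8, the activator of gluconeogenic genes, differed by 0.64 (adjusted p = 0.139), and MIG1, the glucose repressor, by -0.11 (adjusted p = 0.786).

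Genes of respiration rose by small steps. Of 38 genes of the respiratory chain and ATP synthase, 30 were higher and none lower from log phase to 24 h, with a median of 0.74. From 24 h to 48 h, 20 of the 38 were higher and none lower, with a median of 0.51, and all 38 differences were above 0. Their count was 4 without 24 h replicate 2, 0 without 48 h replicate 1, 12 without 48 h replicate 2 and 8 without the variance trend. NDE2, an external NADH dehydrogenase, had 7.55 and 7.03 at 48 h, against 5.97 and 5.49 at 24 h. COX5B, the low-oxygen form of a cytochrome oxidase subunit, had 8.38 and 8.19 at 48 h, against 7.66 and 6.63 at 24 h, and COX8, another subunit, 8.45 and 8.37 at 48 h, against 7.63 and 7.42 at 24 h. Each of the 3 had both 48 h libraries above both 24 h libraries. Their adjusted p was 0.149 without 24 h replicate 2 and 0.209 without 48 h replicate 1 for NDE2, 0.224 without 24 h replicate 2, 0.159 without 48 h replicate 1 and 0.0587 without 48 h replicate 2 for COX5B and 0.0502 without 24 h replicate 2 and 0.0719 without 48 h replicate 1 for COX8. The TCA cycle had 5 of 18 members higher and 1 lower with a median of 0.23. SDH2, the iron-sulfur subunit of succinate dehydrogenase, had 9.07 and 9.05 at 48 h, against 8.59 and 7.94 at 24 h. Its adjusted p was 0.00808 with all libraries and 0.0919 without 24 h replicate 2 and 0.0821 without 48 h replicate 1. The TCA cycle count was 8 without 24 h replicate 1, 0 without 24 h replicate 2, 0 without 48 h replicate 1, 2 without 48 h replicate 2, 2 without the variance trend and 8 after quantile normalization. Mitochondrial ribosomal proteins had 2 of 72 higher and 1 lower, shares below the 9.06% and 12.7% of all features, and the count of rises was 8 without 24 h replicate 1, 0 without 24 h replicate 2, 0 without 48 h replicate 1, 0 without 48 h replicate 2, 1 without the variance trend, 1 after median centring, 1 with limma voom and 1 after quantile normalization. HAP4, the activator of respiratory genes, differed by 0.22 (adjusted p = 0.535). Genes of fatty acid oxidation had 3 of 17 higher and none lower with a median of 0.53. No member passed after quantile normalization, none passed without 48 h replicate 1, 1 passed without 24 h replicate 2 and 6 passed without 24 h replicate 1.

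Of 24 genes of hexose transport and glucose sensing, 4 were higher (16.7%) and 2 lower (8.33%), against 9.06% and 12.7% of all features. The count of rises was 2 without 48 h replicate 1, and that of falls was 1 without 48 h replicate 1 and 1 without the variance trend. HXT5, a transporter of slow-growing cells, had 8.08 and 8.17 at 48 h, against 6.49 and 6.39 at 24 h, and rose by 1.69 ± 0.20 (SE, adjusted p = 0.000691), or 3.22-fold. HXT7*, a high-affinity transporter, had 11.37 and 11.24 at 48 h, against 10.67 and 9.78 at 24 h, and rose by 1.09 ± 0.20 (SE, adjusted p = 0.00225). HXT2, an intermediate- to high-affinity transporter, had 12.50 and 12.16 in log phase, 12.07 and 12.10 at 24 h and 10.83 and 10.90 at 48 h. Its late difference was -1.22 ± 0.23 (SE, adjusted p = 0.00232), and its early difference -0.25. HXT1, the low-affinity transporter of glucose-rich cells, had 11.18 and 10.97 in log phase, 10.97 and 10.75 at 24 h and 9.51 and 10.36 at 48 h. Its late difference was -0.93 ± 0.23 (SE, adjusted p = 0.0115). Its adjusted p was 0.0509 without 24 h replicate 1 and 0.209 without 48 h replicate 1. HXT5, HXT7* and HXT2 kept their call whichever library was left out.

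**Figure D2:**
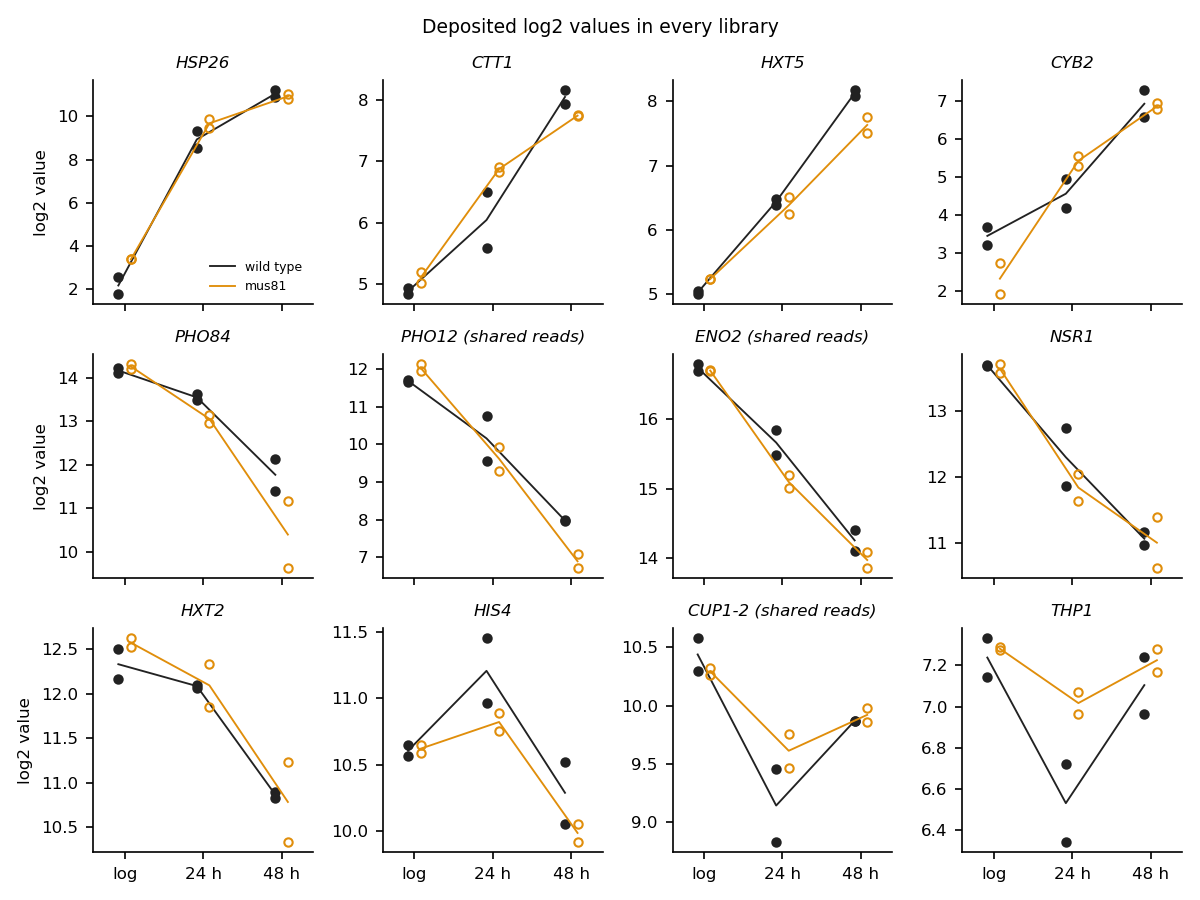
Deposited log2 values (vertical axes, each with its own range) of 12 genes at the 3 ages (log phase, 24 h, 48 h), wild type as filled black points and mus81 as open orange points, each point 1 library and each line the mean of 2. HSP26, CTT1, HXT5 and CYB2 climb at both steps, PHO84 and HXT2 drop mainly after 24 h, HIS4 climbs and then drops, and CUP1-2 and THP1 drop and then climb.

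Genes of ribosome production and translation fell. Of 126 tested assembly factors, 106 were lower and none higher, with a median of -0.65, against 12.7% lower over all features, and all 126 differences were below 0. The late fall continued an earlier one: from log phase to 24 h all 126 were called lower, with a median of -0.95, against 24.2% of all features. NSR1, nucleolin, had 10.96 and 11.16 at 48 h, against 11.86 and 12.74 at 24 h, and 24 h replicate 2 lay well above replicate 1. It fell by 1.24 ± 0.26 (SE, adjusted p = 0.00419). RRP5, a scaffold of the early pre-ribosome, had 10.10 and 10.45 at 48 h, against 11.00 and 11.65 at 24 h, and fell by 1.06 ± 0.18 (SE, adjusted p = 0.00183). The RNA helicase DBP2 had 10.70 and 11.13 at 48 h, against 11.71 and 12.37 at 24 h. The adjusted p of NSR1 was 0.0627 without 24 h replicate 2 and 0.0688 without 48 h replicate 1 and that of DBP2 0.0505 without 48 h replicate 1. The count in the list was 48 without 24 h replicate 2 and 23 without 48 h replicate 1.

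Of 29 subunits and factors of RNA polymerases I and III, 15 were lower and none higher, with a median of -0.33. From log phase to 24 h, 21 were lower and none higher, with a median of -0.69. RPA190, the largest subunit of polymerase I, had 10.52 and 10.82 at 48 h, against 11.39 and 11.66 at 24 h, and fell by 0.86 ± 0.14 (SE, adjusted p = 0.00133). RPA43, another subunit, had 8.99 and 9.05 at 48 h, against 9.68 and 10.29 at 24 h, and fell by 0.97 ± 0.18 (SE, adjusted p = 0.00246). Both kept their call whichever library was left out, and RPA190 differed by -0.54 after quantile normalization. The count was 6 without 24 h replicate 2 and 3 without 48 h replicate 1.

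Of 137 cytosolic ribosomal proteins, 99 were lower and none higher, with a median of -0.60. From log phase to 24 h, 116 were lower and none higher, also with a median of -0.60. They took 14.0% and 14.8% of reads at 48 h, against 17.1% and 18.2% at 24 h. RPL8A had 10.70 and 11.05 at 48 h, against 11.80 and 11.99 at 24 h, a difference of -1.02 ± 0.13 (SE, adjusted p = 0.000691), and RPS7B had 10.55 and 10.72 at 48 h, against 11.36 and 11.68 at 24 h, a difference of -0.88 ± 0.14 (SE, adjusted p = 0.00133). In both genes the 48 h pair lay below the 24 h pair, and the differences were -0.67 and -0.58 after quantile normalization, both called. The count depended on the scaling and on single libraries: it was 49 without 24 h replicate 2, 23 without 48 h replicate 1 and 13 after quantile normalization. After quantile normalization 1 member was higher, and the list's median was -0.15. Of 36 translation factors, 25 were lower and none higher, with a median of -0.66. From log phase to 24 h, 33 were lower and none higher, with a median of -0.80. TEF4, an elongation factor subunit, fell by 1.11 ± 0.16 (SE, adjusted p = 0.00102), with a difference of -0.68 after quantile normalization. TIF4631, the scaffold of cap binding, had 10.00 and 10.01 at 48 h, against 10.71 and 11.21 at 24 h, and fell by 0.95 ± 0.14 (SE, adjusted p = 0.00116). The translation factor count was 9 without 48 h replicate 1 and 10 after quantile normalization. SFP1, an activator of ribosome genes, went the other way with 9.01 and 8.89 at 48 h, against 8.44 and 8.61 at 24 h, a difference of 0.43 ± 0.13 (SE, adjusted p = 0.0314), and its adjusted p was 0.0972 without 24 h replicate 1, 0.211 without 48 h replicate 1 and 0.0644 without 48 h replicate 2.

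The phosphate regulon held the 4 largest falls among the features ranked, those with a mean level above the 25th percentile. Yeast senses phosphate through Pho81, the inhibitor of the Pho80-Pho85 kinase, and the factor Pho4 then switches on phosphatases and transporters. Of 26 tested genes, 15 were lower and 1 higher, with a median of -0.64. From log phase to 24 h, 15 were lower and 4 higher, with a median of -0.63, so the list as a whole fell at both steps. Over all features 24.2% were lower and 24.4% higher in the earlier step. The paired acid phosphatases PHO11* and PHO12* cannot be told apart with certainty. PHO12* had 7.98 and 7.97 at 48 h, against 9.56 and 10.76 at 24 h, and fell by 2.18 ± 0.28 (SE, adjusted p = 0.000691), and PHO11* fell by 2.17 ± 0.30 (SE, adjusted p = 0.000906). The 48 h libraries nearly coincided, and at 24 h replicate 2 was well above replicate 1.

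PHO84, the high-affinity phosphate importer, had 14.12 and 14.21 in log phase, 13.48 and 13.62 at 24 h and 11.40 and 12.14 at 48 h. It fell by 1.78 ± 0.34 (SE, adjusted p = 0.00271), whereas its early difference of -0.62 did not pass. PHO89, the sodium-coupled importer, had 10.72 and 10.79 in log phase, 9.97 and 10.30 at 24 h and 7.95 and 8.19 at 48 h, and fell by 2.06 ± 0.32 (SE, adjusted p = 0.00131), with an early difference of -0.62 that did not pass. VTC3 and VTC4, subunits of the complex that makes polyphosphate in the vacuole membrane, both fell. VTC3 had 9.84 and 10.19 at 48 h, against 11.44 and 11.95 at 24 h, and fell by 1.68 ± 0.21 (SE, adjusted p = 0.000691). VTC4 had 9.88 and 10.43 at 48 h, against 11.51 and 11.72 at 24 h, and fell by 1.46 ± 0.17 (SE, adjusted p = 0.000691). PHO81 itself had 8.57 and 8.64 at 48 h, against 9.26 and 9.61 at 24 h, and fell by 0.83 ± 0.14 (SE, adjusted p = 0.00133), while PHO4 differed by -0.34 (adjusted p = 0.271). PHO89, VTC3, VTC4, PHO81, PHO11* and PHO12* kept their call whichever library was left out, and the adjusted p of PHO84 was 0.0664 without 48 h replicate 1. In mus81 mothers the late differences were -2.66 for PHO84, -2.67 for PHO89 and -2.73 for PHO12*, all called. In the control strain they were -1.31, -1.86 and -1.57 with 1 library per age.

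Genes of amino acid synthesis fell. Of 54 tested genes, 29 were lower (53.7%) and none higher between 24 h and 48 h, with a median of -0.45, against 12.7% lower over all features. From log phase to 24 h, 14 were higher and 15 lower, with a median of -0.10. Over all features 24.4% were higher and 24.2% lower in that earlier step. LEU9, an isopropylmalate synthase, had 8.88 and 9.19 at 48 h, against 9.94 and 10.24 at 24 h, and fell by 1.06 ± 0.15 (SE, adjusted p = 0.00102). HIS1, which begins histidine synthesis, had 11.76 and 11.95 in log phase, 11.51 and 11.51 at 24 h and 10.35 and 10.74 at 48 h, and its late difference was -0.96 ± 0.14 (SE, adjusted p = 0.00102). ARO2, chorismate synthase, had 9.86 and 10.02 at 48 h, against 10.80 and 10.87 at 24 h, and fell by 0.89 ± 0.13 (SE, adjusted p = 0.00102). In all 3 the 48 h pair lay below the 24 h pair, and all 3 kept their call whichever library was left out. The count was 7 without 48 h replicate 1 and 17 after quantile normalization. GCN4, the activator of these genes, is controlled mainly through translation, and its transcript differed by -0.10 (adjusted p = 0.732). That difference turned to 0.42 after quantile normalization (adjusted p = 0.0836).

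Purine and pyrimidine synthesis had 15 of 27 members lower and 1 higher, with a median of -0.61. From log phase to 24 h, 19 were lower and 1 higher, with a median of -0.51. ADE17, which completes the purine ring, had 10.07 and 10.59 at 48 h, against 11.43 and 11.45 at 24 h, and fell by 1.11 ± 0.18 (SE, adjusted p = 0.00133). ADE5,7, which acts at an early pair of steps, had 10.54 and 10.88 at 48 h, against 11.62 and 12.07 at 24 h, and fell by 1.13 ± 0.18 (SE, adjusted p = 0.00133). URA7*, CTP synthase, fell by 0.96 ± 0.16 (SE, adjusted p = 0.00133). The count was 8 without 48 h replicate 1. Methionine and sulfur genes had 5 of 25 lower (20%) and 2 higher (8%), against 12.7% and 9.06% of all features. The count of falls was 3 without 48 h replicate 1, and that of rises was 6 without 24 h replicate 1, 1 without 24 h replicate 2, 0 without 48 h replicate 1, 1 without the variance trend, 1 after median centring and 1 after quantile normalization. CYS4, cystathionine beta-synthase, had 10.81 and 10.96 at 48 h, against 11.59 and 12.08 at 24 h, and fell by 0.95 ± 0.15 (SE, adjusted p = 0.00131), and SAM1, which makes S-adenosylmethionine, fell by 0.79 ± 0.12 (SE, adjusted p = 0.00131). After quantile normalization they differed by -0.59 and -0.50, both called. Ergosterol synthesis had 9 of 26 lower and none higher, with a median of -0.31. ERG6 had 10.63 and 10.69 at 48 h, against 11.26 and 11.24 at 24 h, and fell by 0.59 ± 0.10 (SE, adjusted p = 0.00189), with a difference of -0.31 after quantile normalization, and the count for ergosterol was 5 without 24 h replicate 2, 4 without 48 h replicate 1, 5 without the variance trend and 3 after quantile normalization. Among other lipid genes OLE1, the fatty acid desaturase, had 10.37 and 10.50 at 48 h, against 11.30 and 12.17 at 24 h, and fell by 1.30 ± 0.22 (SE, adjusted p = 0.0016).

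Genes of nitrogen catabolism rose in part, with 9 of 28 members higher and none lower and a median of 0.41. GDH3, a glutamate dehydrogenase, had 8.08 and 7.74 at 48 h, against 6.94 and 6.44 at 24 h, and rose by 1.21 ± 0.23 (SE, adjusted p = 0.00246). PUT4, a proline importer, had 6.56 and 6.41 at 48 h, against 5.12 and 5.17 at 24 h. Both 48 h libraries were above both 24 h libraries in each gene. The adjusted p was 0.0564 without 48 h replicate 1 for GDH3 and 0.0966 without 48 h replicate 1 for PUT4, and the count was 3 without 24 h replicate 2, 0 without 48 h replicate 1 and 5 without 48 h replicate 2.

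Metal and vitamin genes rose in part. The iron regulon had 7 of 31 members higher (22.6%) and 2 lower (6.45%), with a median of 0.26, against 9.06% and 12.7% of all features. FIT3, a cell wall protein that retains iron carriers, had 10.68 and 11.34 at 48 h, against 9.88 and 9.10 at 24 h, and rose by 1.52 ± 0.26 (SE, adjusted p = 0.0016). HMX1, haem oxygenase, had 8.11 and 7.79 at 48 h, against 6.99 and 5.98 at 24 h, and rose by 1.47 ± 0.29 (SE, adjusted p = 0.00306). The adjusted p of HMX1 was 0.0642 without 48 h replicate 1, and the count of iron rises was 2 without 24 h replicate 2, 2 without 48 h replicate 1 and 2 without 48 h replicate 2, and of falls 0 without 24 h replicate 2, 0 without 48 h replicate 1, 0 without the variance trend, 1 with limma voom and 0 after quantile normalization. In mus81 mothers FIT3 differed by 0.38 (adjusted p = 0.451) and in the control strain by 0.11. Thiamine genes had 4 of 20 higher and none lower with a median of 0.54, and their count was 0 without 24 h replicate 2, 0 without 48 h replicate 1, 1 without 48 h replicate 2, 2 without the variance trend and 2 after quantile normalization. Zinc and copper genes had 4 of 12 higher and 2 lower, and the count of rises was 0 without 48 h replicate 1 and 2 without 48 h replicate 2, and of falls 0 without 24 h replicate 2, 0 without 48 h replicate 1, 0 without 48 h replicate 2, 0 without the variance trend and 1 after quantile normalization. With all libraries the zinc and copper shares were 33.3% higher and 16.7% lower, against 9.06% and 12.7% of all features. CRS5, a metallothionein, had 7.72 and 7.41 at 48 h, against 6.57 and 6.76 at 24 h. ZRT1, the high-affinity zinc importer, had 8.26 and 8.17 at 48 h, against 8.63 and 9.47 at 24 h. The adjusted p of CRS5 was 0.00955 with all libraries and 0.129 without 48 h replicate 1; that of ZRT1 was 0.0256 with all libraries and 0.284 without 24 h replicate 2, 0.124 without 48 h replicate 1 and 0.114 without 48 h replicate 2.

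Cell wall genes had 9 of 27 members higher and 2 lower, with a median of 0.36. NCA3, a wall protein of the SUN family, had 10.82 and 10.75 at 48 h, against 9.41 and 8.62 at 24 h, and rose by 1.77 ± 0.23 (SE, adjusted p = 0.000695). PIR3, a covalently bound wall protein, had 11.90 and 11.60 at 48 h, against 10.90 and 10.11 at 24 h, and rose by 1.25 ± 0.20 (SE, adjusted p = 0.00133). UTR2, a chitin transglycosylase outside the list, had 9.46 and 9.67 at 48 h, against 10.72 and 11.22 at 24 h, and fell by 1.41 ± 0.18 (SE, adjusted p = 0.000691). All 3 kept their call whichever library was left out. The count of wall genes higher was 14 without 24 h replicate 1, 3 without 24 h replicate 2, 3 without 48 h replicate 1, 5 without the variance trend and 17 after quantile normalization, and the count lower was 0 without 24 h replicate 2, 0 without 48 h replicate 1, 1 without the variance trend and 1 after quantile normalization.

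Histones had 8 of 11 genes lower and none higher, with a median of -0.70. From log phase to 24 h, 9 were lower and none higher, with a median of -0.67. Histone transcripts are known to peak when DNA is copied. HHF2*, encoding H4, had 10.85 and 11.24 at 48 h, against 11.92 and 11.68 at 24 h, and fell by 0.75 ± 0.14 (SE, adjusted p = 0.00214), with a difference of -0.44 after quantile normalization. HTA2, encoding H2A, had 9.75 and 10.05 at 48 h, against 10.92 and 11.05 at 24 h, and fell by 1.09 ± 0.20 (SE, adjusted p = 0.00239). Its adjusted p was 0.0545 without 48 h replicate 1. The count was 4 without 24 h replicate 2, 2 without 48 h replicate 1 and 5 after quantile normalization. Of 27 G1/S genes 2 were lower (7.41%) and none higher, against 12.7% and 9.06% of all features. The G1/S count was 5 without 24 h replicate 1, 1 without 24 h replicate 2, 0 without 48 h replicate 1, 0 without 48 h replicate 2, 1 without the variance trend, 1 with limma voom and 1 after quantile normalization, and 2 were higher without 24 h replicate 1. G2/M genes had 1 of 16 in each direction (6.25%), and 1 of 12 M/G1 genes was higher (8.33%), shares below those of all features. DNA damage genes had 5 of 25 higher and 3 lower, and the count of rises was 1 without 24 h replicate 2, 0 without 48 h replicate 1, 2 without 48 h replicate 2, 2 without the variance trend and 3 with limma voom, and of falls 0 without 24 h replicate 2, 0 without 48 h replicate 1 and 0 without 48 h replicate 2. With all libraries the DNA damage shares were 20% higher and 12% lower, against 9.06% and 12.7% of all features. HUG1, a ribonucleotide reductase inhibitor induced by damage, had 7.81 and 7.69 at 48 h, against 6.74 and 6.76 at 24 h. It rose by 1.00 ± 0.23 (SE, adjusted p = 0.00693), while in mus81 mothers it had 7.12 and 6.85 at 48 h, against 7.71 and 7.36 at 24 h. The difference between the 2 strains' changes had an unadjusted p of 0.000248 and did not pass after adjustment (adjusted p = 0.331). The wild-type adjusted p of HUG1 was 0.084 without 48 h replicate 1.

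Sporulation and mating genes, commonly low in diploids in rich medium, were measured as markers of other cell states. Of 64 genes of meiosis and spore formation, 8 were higher and none lower, a share of 12.5% against 9.06% of all features. The 8 defining spore markers summed to 0.0150% and 0.0126% of reads at 48 h, against 0.00599% and 0.00755% at 24 h, and none was at 0 reads. DMC1, the meiotic recombinase, had 6.13 and 6.07 at 48 h, against 4.61 and 4.39 at 24 h, and rose by 1.60 ± 0.32 (SE, adjusted p = 0.00338). IME1, the switch of meiosis, differed by -0.42 (adjusted p = 0.424), and NDT80, the later switch, by 0.81 (adjusted p = 0.375). The meiosis count was 5 without 24 h replicate 2, 0 without 48 h replicate 1, 2 without 48 h replicate 2, 4 without the variance trend and 5 after quantile normalization, and the adjusted p of DMC1 was 0.0509 without 48 h replicate 1. Of 33 haploid-specific genes, 2 were higher (6.06%) and 1 lower (3.03%), shares below the 9.06% and 12.7% of all features. The 15 defining markers summed to 0.0271% and 0.0233% of reads at 48 h, against 0.01995% and 0.01654% at 24 h. The count of haploid-specific rises was 4 without 24 h replicate 1, 0 without 48 h replicate 1, 0 without 48 h replicate 2, 1 without the variance trend, 1 with limma voom and 0 after quantile normalization. Their median turned negative (-0.10) after quantile normalization, against 0.16. The part of these transcripts in the other changes was not tested.

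The other lists are read against 9.06% higher and 12.7% lower over all features. Nutrient signalling had 6 of 27 members higher (22.2%) and 3 lower. Its count of rises was 2 without 24 h replicate 2, 0 without 48 h replicate 1 and 2 without the variance trend, and that of falls was 1 without 48 h replicate 1. Strain and selection markers had 3 of 11 lower (27.3%) and none higher, and the falls were 1 without 48 h replicate 1. The rest were galactose use with 1 of 8 higher, NAD synthesis 1 of 14 in each direction, and anaerobic genes 1 of 37 higher and 4 lower. The galactose rises were 2 without 24 h replicate 1, 2 with limma voom and 2 after quantile normalization, the NAD rises 3 without 24 h replicate 1, 0 without 24 h replicate 2, 0 without 48 h replicate 1, 0 without 48 h replicate 2, 0 without the variance trend, 0 after median centring and 0 with limma voom, and the NAD falls 2 without 24 h replicate 1, 0 without 24 h replicate 2, 0 without 48 h replicate 1, 0 without the variance trend and 2 after median centring. The anaerobic falls were 1 without 24 h replicate 2, 1 without 48 h replicate 1, 1 without the variance trend and 2 with limma voom. Silencing genes had 2 of 21 lower and none higher, and the falls were 5 without 24 h replicate 1, 1 without 24 h replicate 2, 1 without 48 h replicate 1 and 1 without the variance trend. SIR2, the histone deacetylase that limits rDNA recombination, differed by -0.30 (adjusted p = 0.265), and FOB1, the fork barrier protein of the rDNA, by -0.30 (adjusted p = 0.13). Apart from the 1 fall among genes of gluconeogenesis and acetate use, every list count of 1 to 3 called members changed with at least 1 of the 4 libraries left out. After quantile normalization the median changed sign for anaerobic genes (-0.14, against 0.08), mitochondrial ribosomal proteins (-0.07, against 0.01) and the proteasome (0.16, against -0.05). It also changed sign, to values near 0, for methionine and sulfur genes (-0.0040, against 0.12) and NAD synthesis (-0.00091, against 0.05).

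Daughter-specific genes had 2 of 11 members lower (18.2%) and none higher, against 12.7% and 9.06% of all features. The count of falls was 0 without 24 h replicate 2, 0 without 48 h replicate 1, 7 without 48 h replicate 2, 0 without the variance trend and 0 after quantile normalization, so that it rested on single libraries. DSE4, a glucanase that splits the daughter from the mother, had 8.88 and 9.64 at 48 h, against 10.05 and 10.00 at 24 h. EGT2, another separation protein, had 9.05 and 9.89 at 48 h, against 10.11 and 10.63 at 24 h. At 48 h replicate 1 lay well below replicate 2 in both genes, and their adjusted p was 0.0688 without 24 h replicate 1, 0.101 without 24 h replicate 2 and 0.356 without 48 h replicate 1 for DSE4 and 0.274 without 24 h replicate 2 and 0.425 without 48 h replicate 1 for EGT2. Both lost their call after quantile normalization as well (adjusted p = 0.0615 and 0.0959). UBC9, one of the 2 genes the recombinase inactivates in daughters, had 8.02 and 7.50 in log phase, 6.16 and 6.29 at 24 h and 3.67 and 5.28 at 48 h. It fell by 1.75 ± 0.40 (SE, adjusted p = 0.00727) and its libraries did not overlap between ages. Its adjusted p was 0.0534 without 24 h replicate 2 and 0.119 without 48 h replicate 1. CDC20, the other, differed by 0.37 (adjusted p = 0.0582). UBC9 also differed by -2.13 in mus81 mothers, where it was called, by -1.39 in the control strain and by -1.80 in the translocation strain. TOM70, a mitochondrial import receptor tagged in 2 of the strains, fell by 0.61 ± 0.11 (SE, adjusted p = 0.00188) in wild type.

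The transcripts of the rDNA spacers, known to rise in ageing mothers, gave no call between 24 h and 48 h. IGS1-2S had 7.31 and 7.34 in log phase, 14.50 and 14.81 at 24 h and 14.52 and 15.50 at 48 h, and IGS2-1S had 6.33 and 6.34 in log phase, 12.43 and 12.82 at 24 h and 11.90 and 12.57 at 48 h. The early differences were 7.33 and 6.29, and the late ones 0.35 (adjusted p = 0.535) and -0.39 (adjusted p = 0.395). The antisense spacers IGS1-2AS and IGS2-1AS differed late by -0.16 and -0.22 (adjusted p = 0.869 and 0.78). Replicates differed by more than the ages did, since the 4 spacer features together took 1.83% and 3.43% of reads at 48 h, against 2.84% and 1.78% at 24 h. TAR1, a gene on the opposite strand of the large rRNA gene, had 8.21 and 7.29 at 48 h, against 5.29 and 9.82 at 24 h. Its late difference was 0.19 (adjusted p = 0.922), and it was -2.08 without 24 h replicate 1 (adjusted p = 0.0386) and 2.45 without 24 h replicate 2 (adjusted p = 0.0433), so that its direction rested on single libraries.

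Of 4 features of the 2-micron plasmid, 3 rose. It is a small circular plasmid of the yeast nucleus, and the files name its features by position. The feature at 2271 to 2816 had log2 values of 11.83 and 11.53 at 48 h, against 10.11 and 10.23 at 24 h. It rose by 1.51 ± 0.13 (SE, adjusted p = 4.56e-05), and the feature at 887 to 2008, with 12.50 and 12.31 at 48 h, against 11.64 and 11.63 at 24 h, rose by 0.77 ± 0.12 (SE, adjusted p = 0.00107). Both kept their call whichever library was left out. In mus81 mothers the same 2 features differed by 0.40 and 0.10 (adjusted p = 0.0784 and 0.706). The difference between the strains' changes had an unadjusted p of 1.96e-05 for the first, the smallest of all 6669 features, and an adjusted p of 0.131. In the control strain and the translocation strain, with 1 library per age, the first differed by 0.87 and 0.70 and the second by 0.13 and 0.08. The feature that spans 1 to 6318 rose by 1.05 ± 0.20 (SE, adjusted p = 0.00296), and its adjusted p was 0.0662 without 48 h replicate 1. In mus81 mothers it differed by 0.36 (adjusted p = 0.346), in the control strain by -0.03 and in the translocation strain by -0.23. The feature at 4308 to 5198 differed by 0.36 (adjusted p = 0.0571), by -0.06 in mus81 mothers (adjusted p = 0.87), by -0.27 in the control strain and by -0.10 in the translocation strain.

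Several of the largest changes lay outside these groups. NQM1, a transaldolase relative, had 8.83 and 8.63 at 48 h, against 7.67 and 6.59 at 24 h, and rose by 1.60 ± 0.30 (SE, adjusted p = 0.00257). RGI1, a protein of respiratory growth, had 8.05 and 7.72 at 48 h, against 6.54 and 6.11 at 24 h, and rose by 1.56 ± 0.27 (SE, adjusted p = 0.00188). AGX1, which makes glycine from glyoxylate, rose by 1.49 ± 0.22 (SE, adjusted p = 0.00102). YMR090W and YDL057W rose by 1.58 ± 0.23 (SE, adjusted p = 0.00102) and 1.51 ± 0.26 (SE, adjusted p = 0.00188). PLB2, a lysophospholipase, had 7.25 and 7.63 at 48 h, against 8.24 and 9.64 at 24 h, and fell by 1.50 ± 0.31 (SE, adjusted p = 0.00414), and the cell wall-like protein YIL169C fell by 1.39 ± 0.23 (SE, adjusted p = 0.00142). YBL039C-A* fell by 1.40 ± 0.17 (SE, adjusted p = 0.000691), and its coordinates lie inside URA7* on chromosome II. The adjusted p was 0.0528 without 48 h replicate 1 for NQM1 and 0.0765 without 48 h replicate 1 for PLB2, and the other 5 kept their call whichever library was left out.

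A set of genes moved late only, with a change under 0.25 in size up to 24 h. Among the falls beside HXT2 and HXT1, GGC1, the mitochondrial carrier of GTP and GDP, had 8.72 and 8.93 in log phase, 8.73 and 8.74 at 24 h and 7.69 and 7.93 at 48 h. Its 2 libraries at 48 h lay below all 4 earlier libraries, and it fell by 0.92 ± 0.14 (SE, adjusted p = 0.00104). PGM1, the minor phosphoglucomutase, had 9.94 and 9.65 in log phase, 9.98 and 9.98 at 24 h and 9.04 and 9.32 at 48 h, and fell by 0.80 ± 0.13 (SE, adjusted p = 0.00142). REE1, a gene linked to galactose metabolism and enolase, had 9.83 and 9.95 in log phase, 10.28 and 9.97 at 24 h and 9.13 and 9.32 at 48 h, and fell by 0.90 ± 0.14 (SE, adjusted p = 0.00133). YDL241W fell by 0.99 ± 0.20 (SE, adjusted p = 0.00356). Its adjusted p was 0.0729 without 48 h replicate 1. Among the rises PRY1, a sterol-binding protein, had 9.54 and 9.32 in log phase, 9.61 and 9.36 at 24 h and 10.47 and 10.41 at 48 h, and rose by 0.95 ± 0.15 (SE, adjusted p = 0.00126). YNL134C, a relative of alcohol dehydrogenases, had 8.20 and 8.00 in log phase, 8.38 and 8.05 at 24 h and 9.26 and 9.21 at 48 h, and rose by 1.02 ± 0.15 (SE, adjusted p = 0.00107). For both, the 48 h pair lay above all 4 earlier libraries. YMR252C, NDL1, YLR173W and YML131W rose by 1.15, 1.06, 0.95 and 0.91, and each lost its call when 1 library was left out. Their adjusted p was 0.0682 without 24 h replicate 2 and 0.084 without 48 h replicate 1 for YMR252C, 0.0501 without 48 h replicate 1 for NDL1, 0.0753 without 24 h replicate 2 and 0.104 without 48 h replicate 1 for YLR173W and 0.0654 without 48 h replicate 1 for YML131W.

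Genes that turned round were few. Of 6669 features, 4 rose by 24 h and then fell (0.06%), and 9 fell by 24 h and then rose (0.135%), with both steps called. Both steps use the 24 h libraries, so an error in those 2 libraries moves the steps in opposite directions, and strains with libraries of their own are given beside them. Without 24 h replicate 1 the counts were 48 and 64, without 24 h replicate 2 they were 15 and 7, without 48 h replicate 1 they were 1 and 0, and without 48 h replicate 2 they were 9 and 2. None of the 13 reversals held in all 4 of these fits.

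HIS4, which catalyses several steps of histidine synthesis, rose and then fell. HIS4 had 10.65 and 10.56 in log phase, 11.46 and 10.96 at 24 h and 10.05 and 10.52 at 48 h. The 24 h pair lay above all other libraries, with a difference of 0.60 ± 0.16 (SE, adjusted p = 0.00703) from log phase, and the later difference was -0.92 ± 0.16 (SE, adjusted p = 0.00192). It kept the reversal in 16 of 17 settings and in 3 of 4 with a library left out. In mus81 mothers HIS4 had 10.05 and 9.91 at 48 h, against 10.89 and 10.76 at 24 h, with a difference of -0.84 that was called (adjusted p = 0.00915). In the control strain it differed by -1.03, and in the translocation strain by -1.02. Its upstream window printed above, placed to hold the most matches, holds 3 Gcn4 sites.

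LEU2, the isopropylmalate dehydrogenase and a common selection marker of laboratory strains, and AUS1, a sterol importer, also belonged to this class. LEU2 had 8.35 and 8.23 in log phase, 8.92 and 8.66 at 24 h and 8.25 and 8.43 at 48 h, and AUS1 had 8.24 and 8.29 in log phase, 8.60 and 8.71 at 24 h and 8.13 and 8.35 at 48 h. Their late differences were -0.45 ± 0.15 (SE, adjusted p = 0.0483) and -0.42 ± 0.14 (SE, adjusted p = 0.0427), after rises of 0.50 and 0.39. HIS4, LEU2 and AUS1 had late differences below 0 in mus81, in the control strain and in the translocation strain. The adjusted p of the late fall was 0.184 without 24 h replicate 1, 0.3 without 48 h replicate 1 and 0.0738 without 48 h replicate 2 for LEU2 and 0.163 without 24 h replicate 2 and 0.31 without 48 h replicate 1 for AUS1. LEU2 also lost it after quantile normalization (adjusted p = 0.0617).

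The genes that fell and then rose included the copper metallothionein genes CUP1-1* and CUP1-2*, a tandem pair whose reads cannot be told apart. CUP1-2* had 10.58 and 10.30 in log phase, 8.83 and 9.46 at 24 h and 9.87 and 9.87 at 48 h, an early difference of -1.30 and a late rise of 0.73 ± 0.17 (SE, adjusted p = 0.00811). CUP1-1* rose by 0.57 ± 0.18 (SE, adjusted p = 0.0316). For CUP1-2* replicate 1 was the lower at 24 h, and the 48 h pair stayed below log phase. The adjusted p was 0.0519 without 24 h replicate 1 and 0.0777 without 48 h replicate 1 for CUP1-2* and 0.249 without 24 h replicate 1, 0.12 without 48 h replicate 1 and 0.148 without 48 h replicate 2 for CUP1-1*. Their late differences in mus81 were 0.31 and 0.31, neither called.

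THP1, a subunit of the mRNA export complex TREX-2, had 7.33 and 7.14 in log phase, 6.72 and 6.34 at 24 h and 7.24 and 6.97 at 48 h. TAF7, a subunit of the general factor TFIID, had 8.96 and 8.95 in log phase, 8.54 and 8.60 at 24 h and 8.89 and 9.08 at 48 h, and LEU3, the regulator of leucine synthesis, had 9.06 and 9.11 in log phase, 8.56 and 8.59 at 24 h and 8.99 and 8.94 at 48 h. In these 3 genes the 24 h pair lay below the 4 other libraries. SCM4, YOR131C and RUP1, a partner of the ubiquitin ligase Rsp5, rose late by 0.48, 0.46 and 0.38 after early changes of -0.58, -0.55 and -0.31. YDL086C-A, named here after its values were seen because its level is low, rested on 15 and 18 reads at 48 h, against 10 and 1 at 24 h, and lies antisense to YDL086W. Of the 9 genes, 8 had a late difference above 0 in mus81, 6 in the control strain and 5 in the translocation strain, and 5 in all 3, but none was called in mus81. Over all features, 50.0%, 46.6% and 49.1% were above 0 in these strains. CUP1-1* and CUP1-2*, whose reads cannot be told apart, are counted separately among the 9 and among the 5. TAF7, LEU3, SCM4 and YOR131C lost their late call with any 1 of the 4 libraries left out, at adjusted p of 0.0605 (LEU3 without 24 h replicate 1) to 0.211 (SCM4 without 48 h replicate 1). The late adjusted p of THP1 was 0.239 without 24 h replicate 2 and 0.29 without 48 h replicate 1. That of RUP1 was 0.126 without 24 h replicate 2, 0.12 without 48 h replicate 1 and 0.128 without 48 h replicate 2. After quantile normalization THP1, SCM4 and YOR131C lost their late call (adjusted p = 0.136, 0.163 and 0.125).

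**Figure D3:**
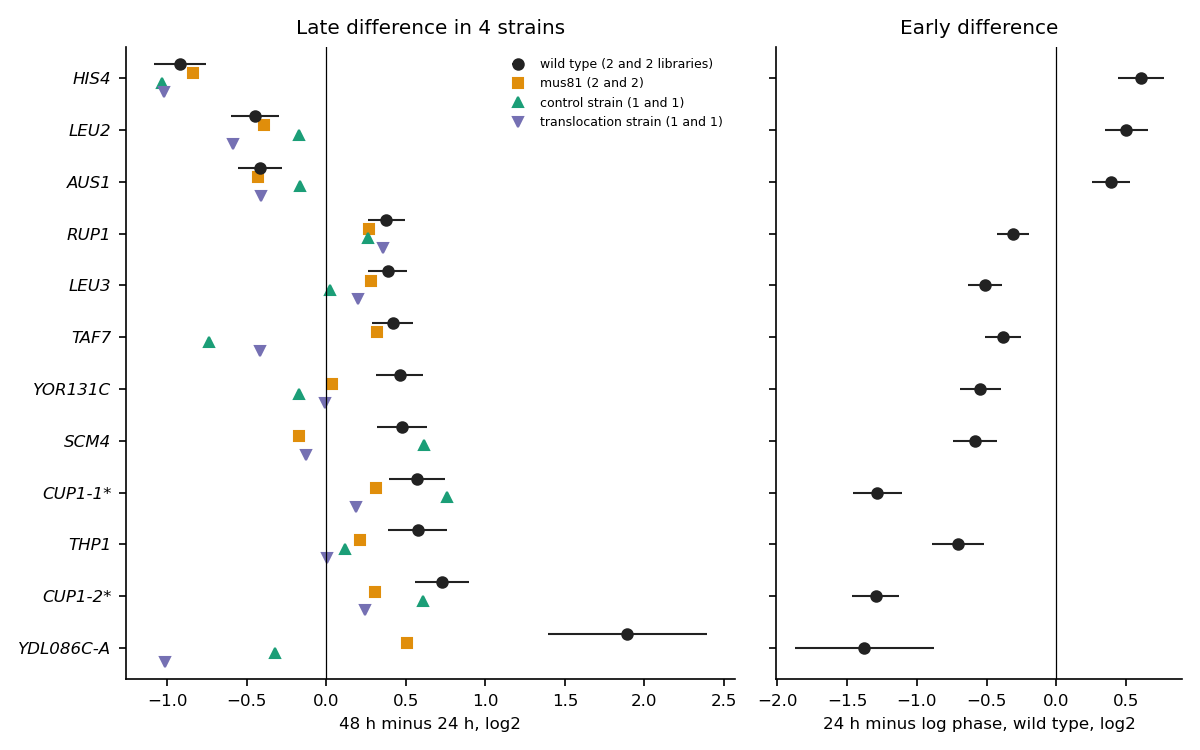
Genes called in opposite directions before and after 24 h, 12 in all. At the left, the difference of 48 h minus 24 h (log2) in wild type with its standard error and in mus81, the control strain and the translocation strain without one; at the right, the wild-type difference of 24 h minus log phase with its standard error. An asterisk marks shared reads. HIS4, LEU2 and AUS1 lie below 0 at the left in all 4 strains, and YDL086C-A lies highest in wild type at 1.89.

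The mus81 mutant, with libraries of its own, was measured over the same interval. It had 66 features higher (0.99%) and 357 lower (5.35%). Of these, 50 of the 66 and 284 of the 357 were also called in wild type in the same direction, which is 75.8% and 79.6% of the mus81 calls and 8.28% and 33.5% of the wild-type calls, and none was called in the opposite direction. The wild-type rises had a median of 0.33 in mus81 against 0.78 in wild type, and the falls a median of -0.40 against -0.61. The sign in mus81 was the same for 91.6% of the wild-type rises and 97.4% of the falls. In the control strain these shares were 87.7% and 85.4%, and in the translocation strain 84.4% and 80.7%. Over all features 50.0% were above 0 in mus81, 46.6% in the control strain and 49.1% in the translocation strain. The shares below 0 were 50.05%, 53.4% and 50.9%.

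The test of the difference between the wild-type and mus81 changes called 0 features with limma, with 451 at an unadjusted p under 0.05 (6.76%). Without 24 h replicate 1 it called 81. Genes that passed in wild type alone are therefore not shown to differ from mus81. The general stress response had a median of 1.24 in wild type, against 0.64 in mus81, with 0.78 in the control strain and 0.37 in the translocation strain. For ribosome assembly factors the medians were -0.65 in wild type and -0.34 in mus81, and for cytosolic ribosomal proteins -0.60 and -0.63.

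**Figure D4:**
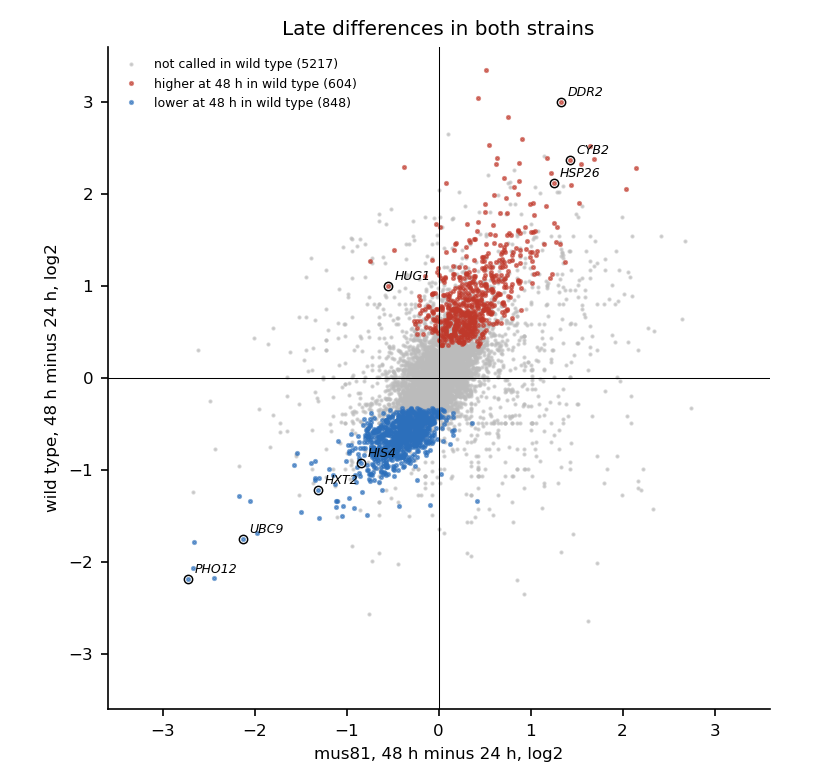
Difference of 48 h minus 24 h (log2) of each of 6669 features in wild type (vertical axis) and in mus81 (horizontal axis), each a mean of 2 libraries minus a mean of 2. Red points were called higher in wild type (604), blue points lower (848) and grey points neither; most red points lie in the upper right and most blue points in the lower left. Circles mark 8 named genes, among which HUG1 lies above 0 in wild type and below 0 in mus81.

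The direction of the main groups did not hang on 1 library. With each of the 4 wild-type libraries left out in turn, the median of the general stress response ran from 1.05 without 24 h replicate 2 to 1.45 without 24 h replicate 1. The median of the assembly factors ran from -0.84 without 24 h replicate 1 to -0.48 without 24 h replicate 2, and that of the phosphate regulon from -0.73 without 48 h replicate 2 to -0.52 without 48 h replicate 1. The stationary phase list ran from 0.63 to 1.01.

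**Figure D5:**
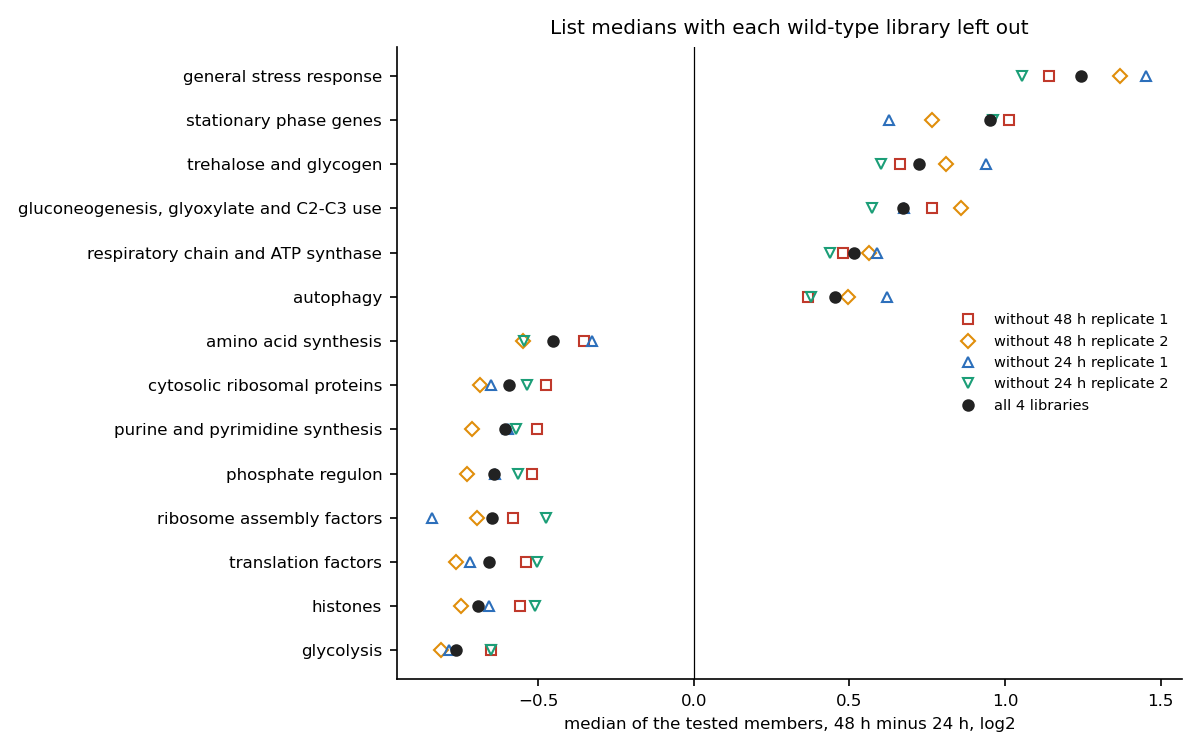
Median difference of 48 h minus 24 h (log2, horizontal axis) over the tested members of 14 gene lists in wild type, with all 4 libraries (black) and with each library left out in turn (open symbols). The 6 lists above amino acid synthesis stay above 0 and the other 8 stay below 0 in every case shown. The general stress response runs between 1.05 and 1.45 and the ribosome assembly factors between -0.84 and -0.48, each set by the 24 h libraries.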

How the data were processed

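Polyadenylated RNA was sequenced with a directional kit, per the labels' protocols. Per the submitters' processing notes, Trim Galore 0.6.6, HISAT2 2.1.0 and the R64 build were used. How reads were counted, with or without strand, and how they were scaled is not given in the sources used here. The authors deposited log2 values per feature, scaled per library. Each library's lowest value marks 0 reads, entered as 0.9, and all values under 200 reads came back whole within 0.02, which gave the reads printed here. The log2 values were fitted as deposited with limma 3.58.1 (R 4.3.3) over 12 libraries and 6 groups, with a variance trend and Benjamini-Hochberg adjustment over 6669 features that exceeded 0 reads in at least 2 libraries. A call is an adjusted p under 0.05.

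Named genes are the 12 largest called rises and falls, up to 4 called members per list, reversals and late-only genes, all but the list members above the 25th percentile of level, plus fixed markers and regulators. The largest rises and falls were taken only from genes whose 48 h pair did not overlap the 24 h pair. The lack of overlap in those genes was therefore fixed by the choice. The comparison, the named genes and the 42 gene lists were chosen with earlier results of these data known. Genes marked with an asterisk (567 in all) share at least 30% of their 50-base words with another gene or overlap one. Alternatives were quantile normalization, median centring, other filters, no variance trend, replicate blocks, fewer libraries, each library left out, and limma voom on the recovered reads. The fit was tested on simulated data, drawn with the same dispersion in every library and independently between features. That simulation did not hold the wider spread of the 24 h pair or the order of replicates along the change. The sequences were read from R64, in which 5980 of 6664 genes had identical coordinates. Some called genes, 1 of the 4 that rose and then fell among them, are not reported here by name.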

Additional observations from a re-analysis of the deposited data

How the results depend on the processing

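Over the fits that each left out 1 library, the count of higher features ran from 81 to 925, of lower features from 202 to 1041, of genes that rose and then fell from 1 to 48, of genes that fell and then rose from 0 to 64, and of changes that differed between wild type and mus81 from 0 to 81. Against 604 higher features, 384 were called without the variance trend and 388 with the 6 wild-type libraries alone, and against 848 lower features 520 were called with the 4 wild-type libraries alone. Against 9 genes that fell and then rose, 3 were called after median centring, 1 with the 6 wild-type libraries alone and 5 with limma voom. No reversal or strain difference can be had from the 4 wild-type libraries alone, nor a strain difference from the 6. The cause of these shifts was not tested. With a replicate block by number, 695 features were higher and 937 lower, with 5 and 12 reversals; the deviations of same-numbered libraries at 24 h and 48 h correlated at 0.0977, and over the pairs of groups in the fit this correlation ran from -0.136 (wild type and mus81 at 48 h) to 0.563 (wild type and mus81 in log phase), so not every pair exceeded 0.1, and the numbers were not taken to pair the libraries. A replicate block by the tag in the library names gave 606 and 843, with 3 and 9 reversals. The strain difference had 0 calls under both blocks.

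Of 216 named features, 182 were called, and all 182 kept their sign in each of the 18 alternatives that gave them a value (features of low level have none under the stricter filter); 73 kept their call whichever wild-type library was left out. Among the called genes described above, without the variance trend AUS1, COX5B, CUP1-1, CUP1-2, DSE4, EGT2, HXT1, LEU2, LEU3, MLS1, MSN4, NDE2, RPN4, SFP1, TAF7 and ZRT1 lost their call (adjusted p from 0.0502 to 0.152). After median centring CUP1-1, LEU3, MSN4, RPN4, RUP1, SCM4, SFP1, TAF7, THP1 and YOR131C lost it (0.0532 to 0.0706), and with limma voom AUS1, COX5B, LEU3, MSN4, RUP1, SCM4 and THP1 did (0.0517 to 0.135). Some uncalled differences changed sign. After quantile normalization GCN4 was 0.42, IGS1-2AS 0.29, IGS2-1AS 0.50 and IGS2-1S 0.058. Over the fits that left out 1 library, ADE2 ran from -0.58 to 0.12, ASH1 from -0.047 to 0.27, DSE1 from -0.74 to 0.025, IGS1-2AS from -1.16 to 0.85, IGS1-2S from -0.14 to 0.85, IGS2-1AS from -0.85 to 0.41, NDT80 from -0.033 to 1.64, TAR1 from -2.08 to 2.45, TRP1 from -0.031 to 0.27 and URA3 from -3.05 to 0.054. Depth limits low features most, since 24 h replicate 2 held 1656535 reads.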
